A study of Mus musculus with 7 samples.

Results

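The type 2A-rich sections are the cryosections of WT and Ctr mouse tibialis anterior in which Myh2, the gene of the type 2A myosin heavy chain, took the largest share of counts. Sections were kept if they had a total of at least 1000 counts and at least 20% of their muscle's median total. The members were chosen by Myh2 CPM, its counts scaled to the section's total. The top 25% of each muscle were taken as 2A-rich and the bottom 25% as 2A-poor. This gave 57 2A-rich sections (12, 16, 15 and 14 in WT replicates 1 and 2 and Ctr replicates 1 and 2) and 57 2A-poor sections. They come from 230 kept and 292 sequenced sections in these 4 muscles, of 525 in the series. The same ranking gave 48 2A-rich sections in the 3 DMD muscles, which served as a comparison. Myh2 chose the sections, so its values are given as a description and it was neither tested nor counted.

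The tibialis anterior lies along the shin and lifts the foot. Each sample was 1 such muscle cut into sections, with polyA RNA sequenced from every section under its own barcode. The labels give 3 groups, DMD (3 muscles), WT (2 muscles) and Ctr (2 muscles), and give no genotype, treatment, age or sex. Column names in the files carry mdx for DMD, pax7 for WT and hDMD for Ctr, which the labels do not explain. WT and Ctr are called non-dystrophic here only because they are the groups not labelled DMD. Whether each muscle came from an animal of its own is not stated, and p-values reflect only how these 7 muscles spread, which may be technical. The WT tables were counted with another gene annotation than the Ctr tables, so group and annotation cannot be told apart.

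A muscle fibre is typed by the myosin heavy chain that drives its contraction. In mouse limb muscle, type 1 fibres use Myh7 and are slow and oxidative, while type 2A fibres use Myh2 and are fast and oxidative. Type 2X fibres use Myh1, and type 2B fibres use Myh4 and rely mostly on glycolysis. The tibialis anterior is a fast muscle in which type 2B and 2X fibres lead and type 2A fibres gather in its deeper, redder part. A section holds many fibres of all these types with vessels, nerve and connective tissue, so 2A-rich describes the mixture in a section and names no single fibre. Fewer cells of a type and less RNA per cell cannot be told apart in such sections.

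Across the 57 2A-rich sections, Myh2 ranged between 187, 168, 171 and 226 CPM at the lowest and 269, 247, 292 and 494 CPM at the highest in the muscles in the order above, with medians of 206, 198, 196 and 261 CPM. The 2A-poor sections had medians of 87.2, 79.6, 80.2 and 61.0 CPM. The last 2A-rich section and the first section left out lay close together in each muscle, at 187, 168, 171 and 226 CPM inside and 185, 166, 170.3 and 222 CPM outside. At the lower boundary, the last 2A-poor section stood at 113, 110.0, 87.1 and 97.7 CPM and the next section above it at 116, 112, 88.7 and 107 CPM. Summed over sections, the log2 ratio of Myh2 was 1.19, 1.25, 1.56 and 2.04 in the 4 muscles. Myh2 CPM of neighbouring kept sections correlated within each muscle (Pearson's r 0.715, 0.608, 0.475 and 0.574 over 50, 64, 61 and 55 sections, which share a library), so high and low sections came in runs.

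**Figure D1:**
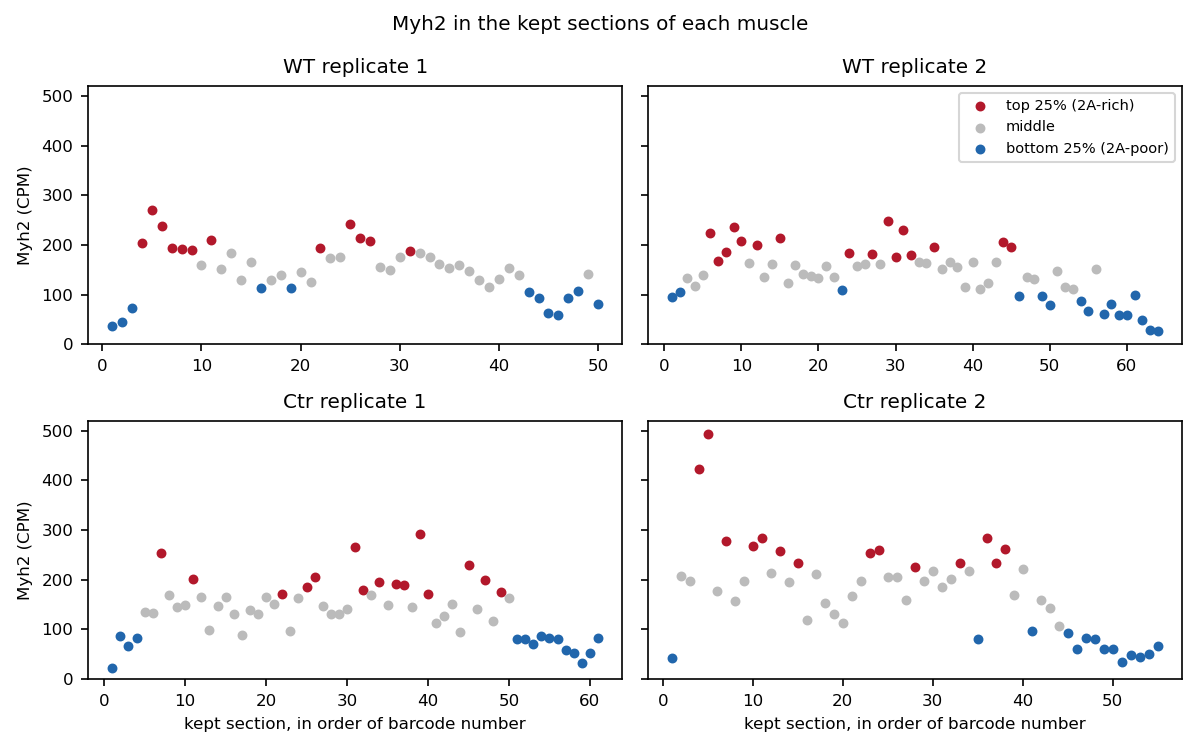
Myh2 CPM (vertical axis) in each kept section of the 4 non-dystrophic muscles, in order of barcode number (horizontal axis), with 2A-rich sections in red, 2A-poor in blue and the rest in grey. Most 2A-poor sections sit at the ends of the order, 41 of 57 of them in its last 25%.

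The 2 sets of sections differed in barcode order and depth as well as in Myh2. Of the 57 2A-rich sections 2 lay in the last 25% of kept sections by barcode number, against 41 of the 57 2A-poor sections, and 5 2A-rich and 10 2A-poor sections lay in the first 10%. The labels do not state that barcode number follows position along the muscle. The median place of 2A-rich minus 2A-poor sections was -67.0, -47.7, -32.8 and -53.6 percent of the kept sections in the 4 muscles, with a mean of -50.3 ± 14.2 (SD, n = 4), with the same sign in 4 of 4 muscles, which in an exact two-sided permutation test gives the smallest p that 4 muscles allow. The log2 ratio of median section totals was 1.28, 1.14, -0.54 and -0.53 in the 4 muscles, so 2A-rich sections were deeper in WT and shallower in Ctr. Mitochondrially encoded genes took 42.3, 46.8, 28.4 and 28.3 percent of counts in the 2A-rich sections, against 42.2, 43.0, 29.2 and 28.6 percent in the 2A-poor sections. The mean difference was 0.694 ± 2.11 percentage points (SD, n = 4, exact p = 0.875). Without WT replicate 2 it was -0.351, with sections ranked within windows of 8 neighbours -1.28, and with sections ranked by the Myh2 share of adult myosin counts it was 3.12 percentage points. Ctr replicate 2 stood apart from the other muscles in its summed level of red cell genes, 29204 CPM in its 2A-rich sections, against 4758 CPM in its 2A-poor sections. In the other 3 muscles the 2A-rich sections had 4626 to 7817 CPM, against 2865 to 4342 CPM in the 2A-poor sections.

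Counts of each set were added up per muscle and compared with the muscle as a block (edgeR's quasi-likelihood test, Benjamini-Hochberg over 7321 genes, called at an adjusted p below 0.05). The 8 sums held 2688685 to 5879850 counts in the tested genes. In all, 160 genes (2.19% of those tested) were called, 81 higher in the 2A-rich sections (1.11%) and 79 lower (1.08%). An unadjusted p below 0.05 was reached by 936 genes. For 118 genes (1.61%) the 2A-rich and 2A-poor sums did not overlap, and 1526 (20.8%) differed with 1 sign in all 4 muscles. Below, values of the 4 muscles are scaled CPM in the order WT replicate 1, WT replicate 2, Ctr replicate 1 and Ctr replicate 2. A log2 difference is 2A-rich over 2A-poor with its approximate standard error.

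Among the 12 largest rises with at least 20 CPM were 4 haemoglobin genes, 5 muscle fibre genes (Ankrd2, Csrp3, Myoz2, Myl3 and Actc1), and Acta2 of smooth muscle. The 12 largest falls were led by Mss51, Tmem100, Col1a1, Ighm and Car3. Without Ctr replicate 1 the count of called genes was 69 and without Ctr replicate 2 it was 67, and DESeq2 called 57. With every section thinned to 1 depth, 135 of the 160 could be tested, all 135 kept their sign and 63 were called. How far the differences go with barcode order and with tendon markers was measured in 2 ways. When sections were ranked within windows of 8 neighbours, Myh2 still differed by 0.69, 0.65, 0.93 and 0.90 on the log2 scale. Of the 160 called genes 132 kept their sign (82.5%, against 67.1% of all genes), at a median of 0.233 of the original difference. Of the 54 2A-rich sections in the windows, 36 were also 2A-rich in the main ranking. In the windows 3 genes of 8223 were called (0.0365%). Hba-a1 differed by 0.25 ± 0.050 (adjusted p = 0.041). The other haemoglobin genes among the largest rises were not called there, with Hba-a2 at 0.18, Hbb-bs at 0.050 and Hbb-bt at -0.026. CT010467.1 differed by 0.36 ± 0.065 (adjusted p = 0.028) and Rps27, a ribosomal protein gene, by -0.28 ± 0.053 (adjusted p = 0.039), and these 2 are named after their values were seen. When the 20% of sections richest in tendon markers were left out first, a choice made after seeing the data, all 157 of the called genes that could be tested kept their sign (against 77.0% of all genes). Their median was 0.514 of the original difference, and 30 were still called. The thinned, window and tendon comparisons reuse counts of the muscles in which the 160 genes were called. A kept sign there is partly built in and is no independent support. Leaving out these sections also narrowed the log2 difference of Myh2, from 1.19, 1.25, 1.56 and 2.04 to 0.85, 0.93, 1.28 and 1.61. How much of the smaller differences goes with this narrowing was not tested. Tendon sections and distance along the order moved with most results below, and their part in each was not tested beyond these values.

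**Figure D2:**
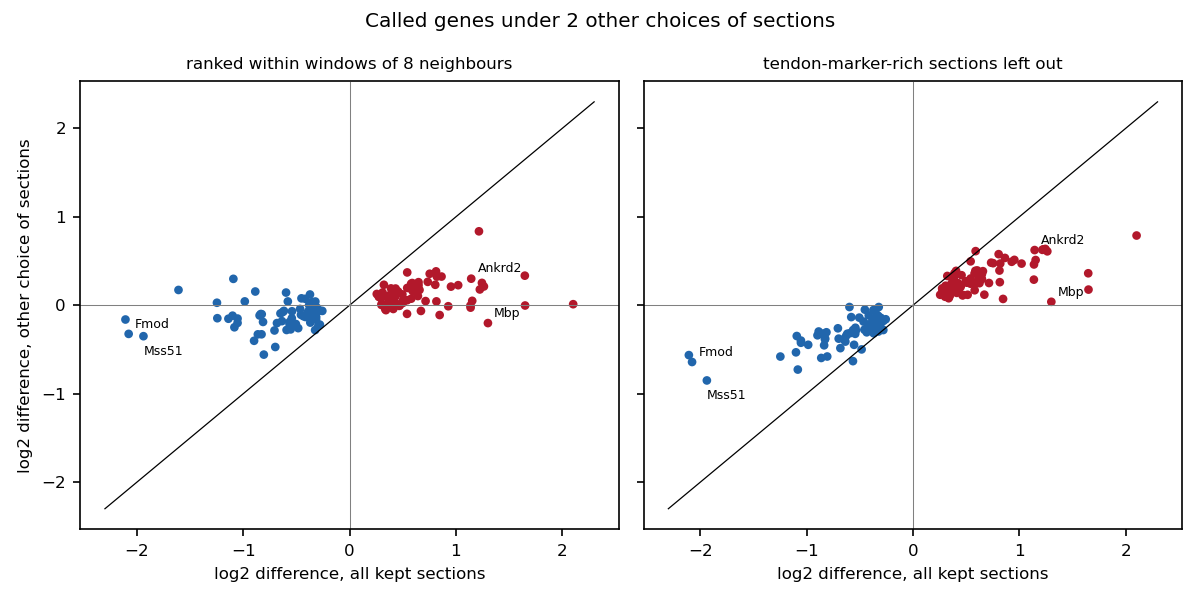
Log2 difference of each called gene with all kept sections (horizontal axis) against its log2 difference with another choice of sections (vertical axis), red for genes higher and blue for genes lower in 2A-rich sections, with the line of equality. Ranking within windows of 8 neighbouring sections brings the points towards 0, and leaving out tendon-marker-rich sections keeps every sign at a median of 0.514 of the size. Both choices also narrow the difference of Myh2, and both reuse sections of the muscles in which the genes were called.

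Promoters are shown for 3 of the fibre genes among the 12 largest rises, chosen after their values and motif matches were seen. All 3 are genes of slow muscle that rose together. Each is the 250 bases before the RefSeq start (GRCm38.p6), written 5′ to 3′ along the gene, with motif matches in capitals.
Ankrd2 (chr19:42035777-42036026, plus strand): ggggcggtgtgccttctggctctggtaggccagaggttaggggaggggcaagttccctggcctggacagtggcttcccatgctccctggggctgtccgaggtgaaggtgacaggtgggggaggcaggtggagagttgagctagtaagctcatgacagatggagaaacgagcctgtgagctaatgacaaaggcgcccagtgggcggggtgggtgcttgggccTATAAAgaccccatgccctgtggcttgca
Myoz2 (chr3:123034988-123035237, minus strand): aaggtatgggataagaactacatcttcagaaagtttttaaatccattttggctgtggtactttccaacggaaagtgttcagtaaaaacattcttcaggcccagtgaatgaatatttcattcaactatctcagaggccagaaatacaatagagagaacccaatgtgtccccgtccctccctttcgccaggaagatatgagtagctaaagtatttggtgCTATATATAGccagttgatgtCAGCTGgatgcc
Myl3 (chr9:110763428-110763677, plus strand): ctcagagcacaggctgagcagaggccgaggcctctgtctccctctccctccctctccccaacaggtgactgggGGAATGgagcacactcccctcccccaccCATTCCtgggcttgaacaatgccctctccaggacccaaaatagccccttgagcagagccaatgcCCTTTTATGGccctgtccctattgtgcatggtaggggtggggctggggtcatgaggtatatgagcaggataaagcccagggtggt

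The capitals mark a TATA box in Ankrd2 (TATAAA, starting -29 from the RefSeq start), and a MEF2 site (-33) and an E-box (CAGCTG, -12) in Myoz2. In Myl3 they mark 2 MCAT elements (CATTCC, -177 and -149, the first on the other strand) and a CArG box (-85). MEF2, MCAT, CArG and E-boxes are bound by known regulators of muscle genes. The 5 motifs were searched on both strands, and no 2 matches of different motifs overlapped in these windows. Among all 32851 promoters of this length, 12.6% held an MCAT element, 13.0% the E-box, 12.4% the TATA box, 2.92% the MEF2 site and 1.47% the CArG box. Among the 12 largest rises, all 12 matched a promoter and 2, 2, 2, 1 and 2 of them held these motifs in the same order. Of the 12 largest falls 5 matched, and 1 of the 5 (Cbr2) held a CArG box while none held the other 4 motifs. The RefSeq starts of Ankrd2, Myoz2 and Myl3 lie 27, 28 and 21817 bases inside the gene in the annotation used for coordinates here. By those coordinates the TATA box of Ankrd2 and the MEF2 site of Myoz2 span the start of the gene. The E-box of Myoz2 and the matches of Myl3 lie inside the gene.

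Of the slow-type fibre genes, 4 rose in the 2A-rich sections, Csrp3, Myoz2, Myl3 and Casq2. The list has 12 genes, of which 10 could be tested and none fell, with a median log2 difference of 0.42 against -0.0039 over all genes tested. Of all genes tested 1.11% rose and 1.08% fell. Csrp3 (chr7:48830398-48848033), the muscle LIM protein of the Z-disc, had 132, 307, 115 and 84.1 CPM in the 2A-rich sections, against 50.3, 191, 61.6 and 41.5 CPM in the 2A-poor sections. Each muscle was higher in its 2A-rich sections, although the muscles themselves differed enough for the 2 ranges to overlap (log2 difference 0.95 ± 0.09, adjusted p = 1.3e-06). Myoz2 (chr3:123006206-123035015), a Z-disc protein of slow fibres that binds calcineurin, had 48.0, 54.2, 24.1 and 19.6 CPM in the 2A-rich sections, against 30.4, 27.7, 11.9 and 10.6 CPM in the 2A-poor sections, again higher in every muscle and overlapping between muscles (log2 difference 0.87 ± 0.12, adjusted p = 0.00013). Myl3 (chr9:110741861-110769798), the essential light chain shared by slow fibres and heart ventricle, had 164, 172, 49.3 and 59.1 CPM in the 2A-rich sections, against 90.0, 133, 17.4 and 30.9 CPM in the 2A-poor sections. It rose at every step through the 4 ranked sets of sections, low to high Myh2, in all 4 muscles (log2 difference 0.82 ± 0.11, adjusted p = 0.00019). Casq2, the calcium store protein of slow fibres and heart, averaged 19.3 ± 5.18 CPM in the 2A-rich sections and 12.4 ± 3.28 CPM in the 2A-poor sections (SD, n = 4 each, log2 difference 0.66 ± 0.16, adjusted p = 0.03), and its call was lost without WT replicate 2 (0.70, adjusted p = 0.096), without Ctr replicate 1 (0.68, adjusted p = 0.077) and without Ctr replicate 2 (0.45, adjusted p = 0.383).

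The rest of the slow list did not pass. Tnnt1, the slow troponin T, had a log2 difference of 0.46 ± 0.20 (adjusted p = 0.34), Tpm3, the slow tropomyosin, 0.39 ± 0.19 (adjusted p = 0.41), Tnnc1, the slow and cardiac troponin C, 0.039 ± 0.40 (adjusted p = 0.98), and Atp2a2, the slow calcium pump, 0.019 ± 0.19 (adjusted p = 0.98). Myl2, the slow regulatory light chain, ran the other way at -0.62 ± 0.18 (adjusted p = 0.077), with 4.96, 11.7, 1.07 and 16.1 CPM in the 2A-rich sections, against 5.92, 21.4, 0.868 and 25.1 CPM in the 2A-poor sections, and is described because its sign differs, after its values were seen. Myh7 and Tnni1, the genes that define type 1 fibres most directly, had too few counts to be tested.

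Ankrd2 (chr19:42036000-42045110), an ankyrin repeat protein that responds to stretch and is best known in slow muscle, had 38.2, 70.3, 56.3 and 42.7 CPM in the 2A-rich sections, against 23.7, 28.2, 27.5 and 14.3 CPM in the 2A-poor sections. All 4 2A-rich values lay above all 4 2A-poor values, a 2.21-fold difference (log2 difference 1.14 ± 0.12, adjusted p = 3.4e-06). Ankrd2 was also called without the tendon-marker-rich sections (log2 0.62), as were Csrp3 (0.51), Myoz2 (0.54) and Myl3 (0.47). Actc1, the cardiac alpha-actin that skeletal muscle also makes, averaged 127 ± 23.9 CPM in the 2A-rich sections and 74.0 ± 43.2 CPM in the 2A-poor sections (SD, n = 4 each, log2 difference 0.85 ± 0.14, adjusted p = 0.00088), with the difference in WT replicate 1 smaller than in the other 3 muscles. Through the 4 ranked sets, low to high Myh2, Actc1 had 81.7, 171, 180 and 125 CPM in Ctr replicate 1. In Ctr replicate 2 it had 44.5, 162, 161 and 128 CPM. In both Ctr muscles it was thus higher in the middle sets than in the 2A-rich sections, while in both WT muscles the 2A-rich sections were highest. Without tendon-marker-rich sections the log2 difference of Actc1 was 0.072 and that of Casq2 0.39, neither called. Ankrd1, a relative of Ankrd2 listed with the myotendinous junction, had the opposite sign and was not called (log2 -0.61 ± 0.19, adjusted p = 0.1).

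**Figure D3:**
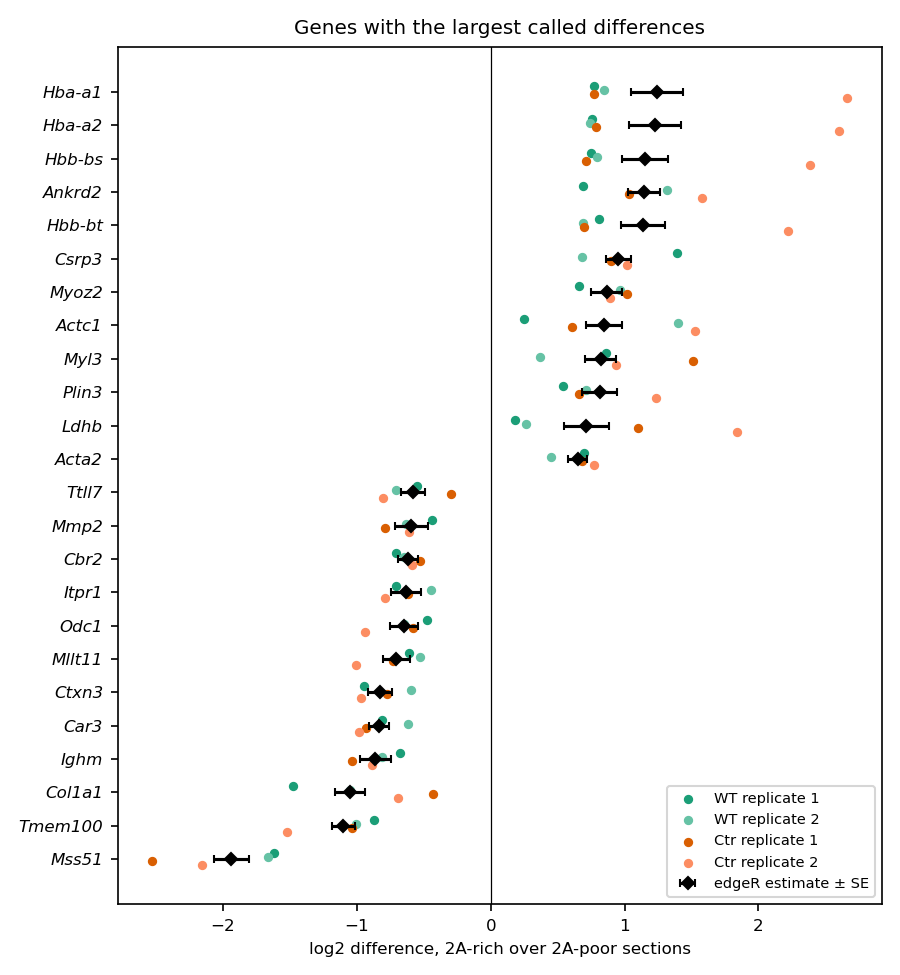
Log2 difference between 2A-rich and 2A-poor sections (horizontal axis) for the 12 largest called rises and 12 largest called falls, with coloured points for the 4 muscles and the black diamond and bar for the edgeR estimate and its standard error. Ctr replicate 2 stands far to the right of the other muscles for the 4 haemoglobin genes, and all 4 muscles share 1 sign for each gene shown.

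Among the other myosin heavy chains, Myh1 (chr11:67200052-67224575), the type 2X gene, rose with Myh2. It had 1342, 1139, 821 and 1196 CPM in the 2A-rich sections, against 929, 1059.8, 427 and 669 CPM in the 2A-poor sections, with WT replicate 2 showing the smallest difference (log2 difference 0.60 ± 0.10, adjusted p = 0.00078), and it was still called without tendon-marker-rich sections (log2 0.39). Myh1 shares long stretches of sequence with Myh2, and reads that mapped to more than 1 gene had been divided between them, so its value is uncertain. Myh4, the type 2B gene, was high in both sets at 9016, 8142, 9319 and 13417 CPM in the 2A-rich sections, against 9424, 10851, 10171 and 14886 CPM in the 2A-poor sections, lower in the 2A-rich sections of all 4 muscles without passing the test (log2 -0.19 ± 0.07, adjusted p = 0.25, described after its values were seen). Myh8, the perinatal gene, was low in level (log2 0.25 ± 0.27, adjusted p = 0.76), and Myh3, Myh6, Myh7b and Myh13 could not be tested.

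Of the genes of the fast glycolytic fibre, 4 fell in the 2A-rich sections, Casq1, Mylk2, Myl1 and Mylpf. All 12 on the list were tested and none rose, and the log2 differences of the 12 lay between -0.37 and -0.082 with a median of -0.23. Of all genes tested 1.08% fell and 1.11% rose. Casq1, the calcium store protein of fast fibres, had 1926, 2305, 1198 and 1867 CPM in the 2A-rich sections, against 2467, 2582, 1637 and 2652 CPM in the 2A-poor sections and fell at each step with rising Myh2 in all 4 muscles (log2 difference -0.37 ± 0.07, adjusted p = 0.0051). Mylk2, the skeletal myosin light chain kinase, averaged 61.3 ± 6.15 CPM in the 2A-rich sections and 78.2 ± 14.9 CPM in the 2A-poor sections (SD, n = 4 each, log2 difference -0.35 ± 0.09, adjusted p = 0.036). Myl1 and Mylpf, the fast essential and regulatory light chains, had log2 differences of -0.34 ± 0.07 (adjusted p = 0.0076) and -0.33 ± 0.07 (adjusted p = 0.009). Pvalb, the calcium buffer parvalbumin (-0.26 ± 0.07, adjusted p = 0.085), and Actn3, the fast Z-disc actinin (-0.24 ± 0.07, adjusted p = 0.067, described after its values were seen), were not called. Each of these 4 calls was lost without Ctr replicate 1 (log2 -0.33, -0.29, -0.33 and -0.28 for Casq1, Mylk2, Myl1 and Mylpf). Without Ctr replicate 2 all 4 were also lost (-0.32, -0.28, -0.31 and -0.32 in the same order). The call of Mylk2 was lost without WT replicate 2 (-0.36). None of the 4 was called without tendon-marker-rich sections (-0.25, -0.046, -0.23 and -0.12 for Casq1, Mylk2, Myl1 and Mylpf).

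**Figure D4:**
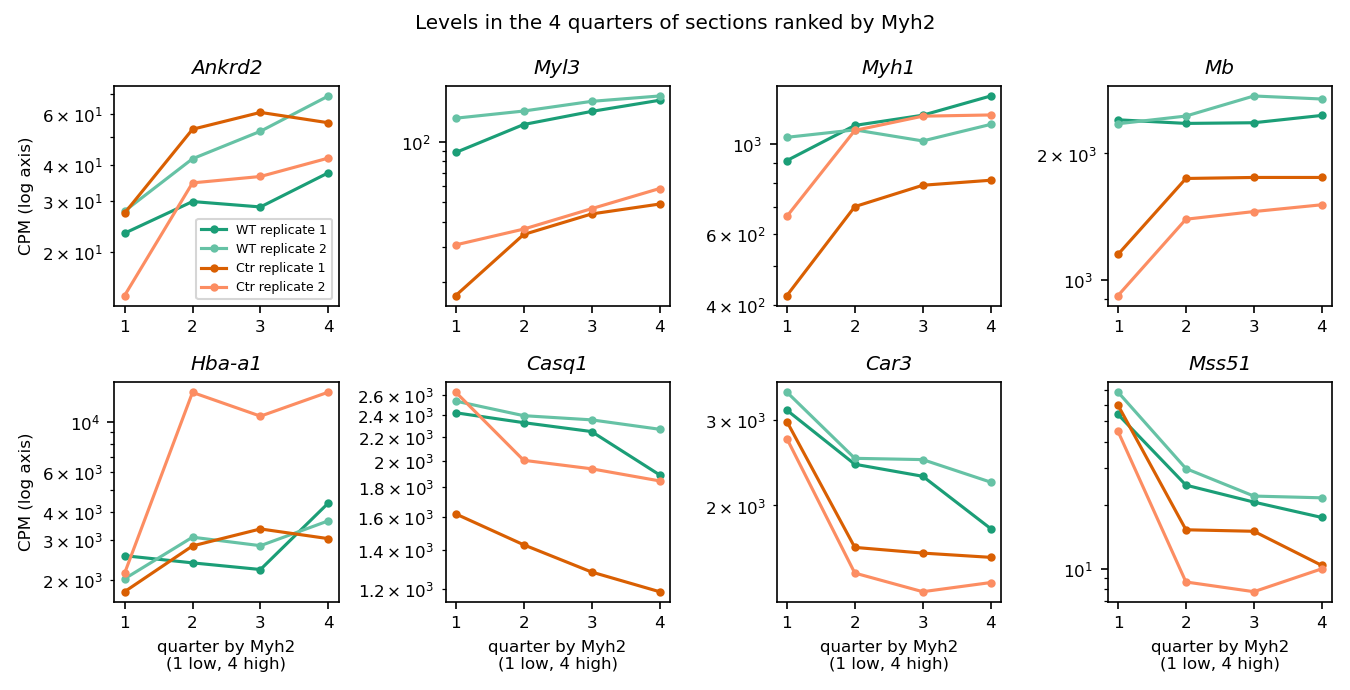
CPM on a log axis (vertical) in the 4 sets of 25% of sections, ordered by Myh2 from low to high (horizontal), for 8 genes in the 4 muscles. For Mss51, Car3 and Hba-a1 the step between the first and second set was larger in the Ctr than in the WT muscles on this scale, and Myl3 rose and Casq1 fell at every step in all 4 muscles.

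For Mss51 the drop came mostly at the first step. Its levels through the 4 sets, low to high Myh2, were 53.9, 24.9, 20.7 and 17.5 CPM in WT replicate 1, 68.8, 29.9, 22.1 and 21.7 in WT replicate 2, 59.6, 15.3, 15.1 and 10.4 in Ctr replicate 1 and 44.8, 8.66, 7.79 and 10.002 in Ctr replicate 2. The lowest set thus stood apart from the other 3 sets in every muscle. Ankrd2 had its lowest level in the lowest set in every muscle, with 23.2, 29.9, 28.6 and 37.5 CPM in WT replicate 1, 27.7, 42.0, 52.2 and 69.1 in WT replicate 2, 27.2, 53.1, 60.7 and 55.9 in Ctr replicate 1 and 14.1, 34.6, 36.5 and 42.2 in Ctr replicate 2. In both Ctr muscles most of its difference lay between the lowest set and the next. Spearman's rho with Myh2 over the kept sections of a muscle, whose points share a library, was 0.47, 0.58, 0.54 and 0.61 for Ankrd2, 0.73, 0.31, 0.59 and 0.55 for Myl3, 0.74, -0.09, 0.75 and 0.77 for Myh1, -0.46, -0.64, -0.41 and -0.43 for Car3 and -0.40, -0.58, -0.59 and -0.36 for Mss51 in the 4 muscles.

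Of the genes for taking up and burning fatty acids, 6 rose in the 2A-rich sections, Lpl, Slc27a1, Hadha, Acadl, Fabp3 and Cd36. All 18 on the list were tested and none fell, where 1.11% of all genes tested rose and 1.08% fell. Of the 18 differences 17 were positive, and the median log2 difference was 0.34. Lpl (chr8:68880491-68907448), the lipase that frees fatty acids from blood lipoproteins, had 1037, 699, 1813 and 1678 CPM in the 2A-rich sections, against 845, 474, 1081 and 865 CPM in the 2A-poor sections, higher in the 2A-rich sections of every muscle (log2 difference 0.64 ± 0.08, adjusted p = 8.5e-05). Slc27a1, a fatty acid transporter, had 53.5, 40.3, 63.0 and 40.1 CPM in the 2A-rich sections, against 32.96, 30.9, 39.3 and 25.9 CPM in the 2A-poor sections, with no overlap between the sets (log2 difference 0.62 ± 0.10, adjusted p = 0.00074). Acadl, the long-chain acyl-CoA dehydrogenase of beta-oxidation, also had no overlap at 229.9 ± 29.7 CPM in the 2A-rich sections and 177 ± 13.3 CPM in the 2A-poor sections (SD, n = 4 each, log2 difference 0.37 ± 0.07, adjusted p = 0.0042). Hadha, of the mitochondrial trifunctional protein, had a log2 difference of 0.39 ± 0.10 (adjusted p = 0.047). Fabp3, the fatty acid binding protein of heart and red muscle, had 0.34 ± 0.08 (adjusted p = 0.013), and Cd36, a fatty acid receptor, had 0.34 ± 0.08 (adjusted p = 0.035). Cpt1b, which admits fatty acids to mitochondria, did not pass (0.40 ± 0.16, adjusted p = 0.27). Lpl was called whichever muscle was left out and without the tendon-marker-rich sections (log2 0.30). Of the others, Slc27a1 (0.29), Hadha (0.36), Acadl (0.18) and Fabp3 (0.10) were not called without those sections. The call of Hadha was lost on leaving out any of the 4 muscles (0.33 to 0.44). Fabp3 was no longer called without WT replicate 2 (0.33), Ctr replicate 1 (0.32) or Ctr replicate 2 (0.29), and Acadl without Ctr replicate 1 (0.35). Plin3, a lipid droplet coat protein among the 12 largest rises, averaged 29.4 ± 12.7 CPM in the 2A-rich sections and 16.7 ± 6.64 CPM in the 2A-poor sections (SD, n = 4 each, log2 difference 0.81 ± 0.13, adjusted p = 0.00097). Plin3 was not called without tendon-marker-rich sections (0.39).

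Respiratory chain genes had small differences, and their calls stand beside the 1.11% of all genes tested that rose. Of 21 nuclear genes of the chain 20 had positive differences, with a median log2 of 0.12. The 1 that rose was Uqcrc1 of complex III, at 372 ± 63.7 CPM in the 2A-rich sections and 301 ± 34.5 CPM in the 2A-poor sections (SD, n = 4 each, log2 difference 0.30 ± 0.07, adjusted p = 0.017). None of the 9 mitochondrially encoded genes was called in either direction (median -0.047). Of 13 citric acid cycle genes (median 0.075) 1 rose, Ogdh of the oxoglutarate dehydrogenase complex. Ogdh averaged 631 ± 122 CPM in the 2A-rich sections and 520.2 ± 83.8 CPM in the 2A-poor sections (SD, n = 4 each, log2 difference 0.27 ± 0.07, adjusted p = 0.034). The calls of Uqcrc1 and Ogdh were lost without Ctr replicate 1 (log2 0.33 and 0.28) and without Ctr replicate 2 (0.25 and 0.23). Neither was called without tendon-marker-rich sections (0.17 and 0.19). Ogdh was not called without WT replicate 1 (0.26) either. Of 17 regulators of oxidative fibres, 15 were tested and none passed, among them Ppargc1a, the coactivator of mitochondrial genes, at 0.043 ± 0.13 (adjusted p = 0.94), and Vegfb, a growth factor, at 0.26 ± 0.07 (adjusted p = 0.084).

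Among glycolytic and glycogen genes 3 fell, Gapdh, Ldha and Pgm1, where 1.08% of all genes tested fell. Of 11 glycolysis genes 2 were among these, 10 had negative differences, and the median log2 was -0.14. Gapdh, a central enzyme of glycolysis, averaged 1971 ± 543 CPM in the 2A-rich sections and 2375 ± 431 CPM in the 2A-poor sections (SD, n = 4 each, log2 difference -0.29 ± 0.07, adjusted p = 0.027). Ldha, the muscle subunit of lactate dehydrogenase, averaged 2359 ± 492 CPM in the 2A-rich sections and 2797 ± 449.9 CPM in the 2A-poor sections (SD, n = 4 each, log2 difference -0.26 ± 0.07, adjusted p = 0.047). Both genes have many processed copies in the genome, so their values are uncertain. Both calls were lost without Ctr replicate 1 (log2 -0.24 and -0.22) and without Ctr replicate 2 (-0.25 and -0.24). Ldha was also lost without WT replicate 1 (-0.27). Of 10 glycogen genes 1 fell, Pgm1, a phosphoglucomutase that links glycogen to glycolysis. Pgm1 averaged 673 ± 119 CPM in the 2A-rich sections and 839 ± 139.8 CPM in the 2A-poor sections (SD, n = 4 each, log2 difference -0.32 ± 0.06, adjusted p = 0.007), and its call was lost without Ctr replicate 1 (-0.30) or Ctr replicate 2 (-0.30). Without tendon-marker-rich sections Gapdh (-0.27) and Pgm1 (-0.25) were called and Ldha (-0.16) was not. Pygm, the muscle glycogen phosphorylase, was not called (-0.14 ± 0.07, adjusted p = 0.4).

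The list of oxygen, lactate and creatine genes split. Of its 8 genes 3 rose and 1 fell, where 1.11% of all genes tested rose and 1.08% fell. Mb, the oxygen store myoglobin of oxidative fibres, had 2511, 2743, 1768 and 1526 CPM in the 2A-rich sections, against 2452, 2397, 1162 and 924 CPM in the 2A-poor sections, higher in every muscle (log2 difference 0.39 ± 0.09, adjusted p = 0.02), and the difference of WT minus Ctr was -0.55 ± 0.12 (adjusted p = 0.098). Ckmt2, the mitochondrial creatine kinase, averaged 1014 ± 182 CPM in the 2A-rich sections and 782 ± 185 CPM in the 2A-poor sections (SD, n = 4 each, log2 difference 0.39 ± 0.07, adjusted p = 0.0031). Ldhb, the heart subunit of lactate dehydrogenase, had 52.6, 50.1, 31.6 and 39.8 CPM in the 2A-rich sections, against 46.5, 41.8, 14.7 and 11.1 CPM in the 2A-poor sections (log2 difference 0.71 ± 0.17, adjusted p = 0.025), and the test of WT minus Ctr below concerns it. The calls of Mb and Ldhb were lost without Ctr replicate 1 (log2 0.32 and 0.62) or Ctr replicate 2 (0.28 and 0.46). Car3 (chr3:14863512-14872523), a carbonic anhydrase abundant in muscle and fat, was the gene that fell, with 1825, 2271, 1577 and 1404 CPM in the 2A-rich sections, against 3200.3, 3484, 3011 and 2771 CPM in the 2A-poor sections. All 4 2A-rich values lay below all 4 2A-poor values (log2 difference -0.84 ± 0.07, adjusted p = 3.3e-07). Car3 was called with each muscle left out in turn and without tendon-marker-rich sections (log2 -0.45). Within windows of 8 neighbours its log2 difference was -0.10, not called. Without tendon-marker-rich sections the rises of Mb (0.19), Ckmt2 (0.19) and Ldhb (0.25) were not called.

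Mss51 (chr14:20482867-20496901), a gene of fast glycolytic muscle studied for its part in mitochondrial metabolism, showed the largest fall of the 12 named, with 17.8, 22.1, 10.5 and 10.1 CPM in the 2A-rich sections, against 54.9, 70.0, 60.3 and 45.2 CPM in the 2A-poor sections. No 2A-rich value reached the lowest 2A-poor value, and the level in 2A-rich sections was 0.261 of that in 2A-poor sections (log2 difference -1.94 ± 0.13, adjusted p = 6e-09). Mss51 was called with each muscle left out in turn and without tendon-marker-rich sections (log2 -0.85). Within windows of 8 neighbours its difference was -0.35, not called. Tmem100, a membrane protein known from endothelium, had 64.7, 50.1, 104 and 49.9 CPM in the 2A-rich sections, against 118, 101, 214 and 143 CPM in the 2A-poor sections, lower in the 2A-rich sections of each muscle (log2 difference -1.10 ± 0.09, adjusted p = 1.3e-07). Ighm, the IgM heavy chain, averaged 18.1 ± 6.45 CPM in the 2A-rich sections and 32.8 ± 12.4 CPM in the 2A-poor sections (SD, n = 4 each, log2 difference -0.86 ± 0.12, adjusted p = 0.00013). Itpr1, the inositol trisphosphate receptor that releases calcium, averaged 22.2 ± 7.35 CPM in the 2A-rich sections and 34.2 ± 9.63 CPM in the 2A-poor sections (SD, n = 4 each, log2 difference -0.64 ± 0.11, adjusted p = 0.0023). Cbr2, a carbonyl reductase, averaged 76.6 ± 17.7 CPM in the 2A-rich sections and 118 ± 28.0 CPM in the 2A-poor sections (SD, n = 4 each, log2 difference -0.62 ± 0.07, adjusted p = 2.4e-05). Ctxn3, Mllt11 and Ttll7, the last a tubulin polyglutamylase, had log2 differences of -0.83 ± 0.09 (adjusted p = 5.3e-06), -0.71 ± 0.10 (adjusted p = 0.00029) and -0.58 ± 0.09 (adjusted p = 0.00074), lower in 4 of 4 muscles each. Without tendon-marker-rich sections Tmem100 (-0.53), Ighm (-0.60) and Cbr2 (-0.32) were called, while Itpr1 (-0.41), Ctxn3 (-0.39), Mllt11 (-0.26) and Ttll7 (-0.13) were not.

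Of the polyamine genes, 3 fell in the 2A-rich sections, Odc1, Amd1 and Amd2. All 7 were tested and none rose, with a median log2 of -0.26, where 1.08% of all genes tested fell. Odc1, the rate-limiting ornithine decarboxylase, had 29.8, 17.4, 36.2 and 23.7 CPM in the 2A-rich sections, against 41.4, 27.3, 54.2 and 45.5 CPM in the 2A-poor sections and fell at each step with rising Myh2 in all 4 muscles (log2 difference -0.65 ± 0.11, adjusted p = 0.00097). Amd1 and Amd2, which encode near-identical adenosylmethionine decarboxylases and so have uncertain shares of their common reads, had log2 differences of -0.37 ± 0.07 (adjusted p = 0.0028) and -0.39 ± 0.07 (adjusted p = 0.0022). Of 11 calcium handling genes 9 were tested (median -0.05) and 2 fell. Cacng1, a subunit of the skeletal calcium channel, had -0.38 ± 0.07 (adjusted p = 0.003), and Asph, the gene of junctin and aspartyl hydroxylase, had -0.31 ± 0.07 (adjusted p = 0.015). The call of Cacng1 was lost without Ctr replicate 1 (-0.34), and that of Asph without Ctr replicate 1 (-0.25) or Ctr replicate 2 (-0.33). Without tendon-marker-rich sections Amd2 was called (-0.27), and Odc1 (-0.38), Amd1 (-0.23), Cacng1 (-0.17) and Asph (-0.21) were not. Of 9 atrophy and denervation genes 6 were tested (median -0.082) and none was called, with Fbxo32 at -0.19 ± 0.08 (adjusted p = 0.3) and Trim63 at -0.20 ± 0.08 (adjusted p = 0.25), both ubiquitin ligases of muscle wasting.

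**Figure D5:**
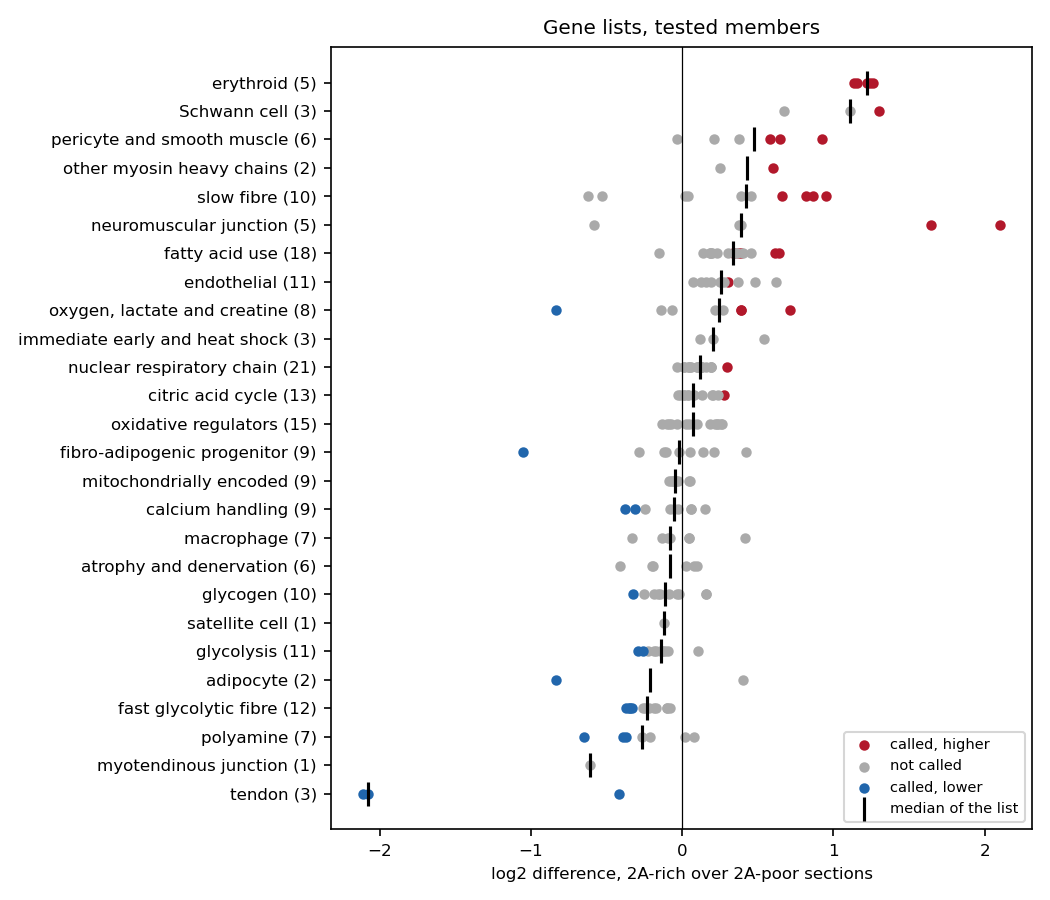
Log2 difference between 2A-rich and 2A-poor sections (horizontal axis) for each tested gene of 26 lists (number tested in brackets), red for called rises, blue for called falls, grey for genes not called, and a black bar for the median of the list. By its median the erythroid list lies furthest to the right and the tendon list furthest to the left, and the respiratory chain and citric acid cycle lists lie near 0.

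Markers of several other cell types differed between the sets, and each list's summed level is given in CPM of all counts. The part of these cells in the differences of fibre genes was not tested. Red cell genes had the highest median. Of 6 erythroid genes 5 were tested and all 5 rose (median 1.23), where 1.11% of all genes tested rose. Their summed level was 4626 to 29204 in the 2A-rich sections, against 2865 to 4758 in the 2A-poor sections, higher in the 2A-rich sections of 4 of 4 muscles. Hba-a1 (chr11:32283511-32284465), an alpha-globin gene, had 4449, 3703, 3063 and 13650.2 CPM in the 2A-rich sections, against 2602, 2055, 1790.4 and 2154 CPM in the 2A-poor sections. Ctr replicate 2 stood far above the other 3 muscles in its 2A-rich sections but not in its 2A-poor ones (log2 difference 1.24 ± 0.19, adjusted p = 0.0007). In both WT muscles Hba-a1 was highest in the set highest in Myh2. Through the 4 sets, low to high Myh2, Ctr replicate 1 had 1770, 2821, 3353 and 3038 CPM. Ctr replicate 2 had 2135, 13457, 10566 and 13497 CPM, so its middle sets were high too and only its lowest set was low. Without that muscle the log2 difference was 0.81 for Hba-a1, 0.77 for Hba-a2, 0.76 for Hbb-bs and 0.74 for Hbb-bt. With it these were 1.24, 1.23, 1.15 and 1.14, and all 4 were called either way. Each pair of globin genes is nearly identical, so their separate values are uncertain. Alas2, the first enzyme of haem synthesis in red cells, had 1.26 ± 0.27 (adjusted p = 0.011) and was not called without Ctr replicate 2 (0.52). Without tendon-marker-rich sections the 4 globin genes were called (0.64, 0.63, 0.51 and 0.46 in the order above), and Alas2 (0.61) was not.

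Of the smooth muscle and vessel genes 4 rose, Acta2, Myh11, Tagln and Kdr, where 1.11% of all genes tested rose. Of 8 smooth muscle and pericyte genes 6 were tested (median log2 0.48), with a summed level of 505 to 866 in the 2A-rich sections, against 357 to 543 in the 2A-poor sections. Acta2 (chr19:34241090-34255590), the smooth muscle actin, had 429.9, 601, 252 and 592 CPM in the 2A-rich sections, against 265, 440.1, 157 and 347 CPM in the 2A-poor sections, higher in every muscle by a similar amount (log2 difference 0.65 ± 0.07, adjusted p = 4.5e-06). Myh11, the smooth muscle myosin, and Tagln, an actin-binding protein, had log2 differences of 0.58 ± 0.12 (adjusted p = 0.012) and 0.93 ± 0.20 (adjusted p = 0.013). The call of Tagln was lost without Ctr replicate 1 (0.89) or Ctr replicate 2 (0.75). That of Myh11 was lost without WT replicate 2 (0.59) or Ctr replicate 2 (0.51). All 11 endothelial genes were tested and had positive differences (median log2 0.26). The 1 called was Kdr, a receptor for vascular growth factor (0.30 ± 0.08, adjusted p = 0.044), and its call was lost without Ctr replicate 1 (0.26) or Ctr replicate 2 (0.23). Their summed level was 479.9 to 634 in the 2A-rich sections, against 439 to 514 in the 2A-poor sections. Without tendon-marker-rich sections Acta2 (0.30), Tagln (0.49), Myh11 (0.17) and Kdr (0.10) were not called. When the 20% of sections richest in larger-vessel markers were left out, a choice made after seeing the data, 139 of the 155 called genes that could be tested were still called and all 155 kept their sign. The markers were Acta2, Myh11, Tagln and Cnn1. Called genes among them helped choose the sections left out and were not taken out of these counts. The sections that remained come from the muscles in which the genes were called, so kept signs and calls are no independent support.

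Of the nerve and synapse genes 3 rose, Mbp, Chrna1 and Chrne, where 1.11% of all genes tested rose. Of 9 Schwann cell genes 3 were tested, and Mbp, the myelin basic protein gene, had 25.4, 22.3, 22.5 and 36.4 CPM in the 2A-rich sections, against 20.7, 10.002, 5.21 and 10.3 CPM in the 2A-poor sections, with no overlap (log2 difference 1.30 ± 0.20, adjusted p = 0.00073). The summed level of the list was 40.3 to 75.7 in the 2A-rich sections, against 12.8 to 42.7 in the 2A-poor sections. Of 12 neuromuscular junction genes 5 were tested and 2 rose, both acetylcholine receptor subunit genes. The other 3 tested, Chrnb1, Ache and Rapsn, were not called. Of the 5 log2 differences 4 were positive, and all 5 lay between -0.58 and 2.10 (median 0.39). Chrna1 had 4.597, 4.63, 4.29 and 6.64 CPM in the 2A-rich sections, against 2.54, 2.27, 0.217 and 0.529 CPM in the 2A-poor sections, without overlap. Chrne, of the adult receptor, had 4.597, 7.35, 6.44 and 11.7 CPM in the 2A-rich sections, against 3.80, 3.64, 0 and 3.44 CPM in the 2A-poor sections, also without overlap. These rest on 25, 17, 16 and 21 counts of Chrna1 in the 2A-rich sums, against 6, 5, 1 and 2 in the 2A-poor sums. For Chrne there were 25, 27, 24 and 37 counts in the 2A-rich sums, against 9, 8, 0 and 13 in the 2A-poor sums. Both genes passed the filter on low counts through their 2A-rich sums and would not have passed on their 2A-poor sums alone. The filter thus favoured a rise and a lack of overlap in both, and neither is support for a difference. Their log2 differences were 2.10 ± 0.43 (adjusted p = 0.0076) and 1.65 ± 0.39 (adjusted p = 0.022). Both calls were lost without Ctr replicate 1 (1.71 and 1.17) or Ctr replicate 2 (1.65 and 1.58), and that of Chrne without WT replicate 2 (1.85). Without tendon-marker-rich sections Mbp had a log2 difference of 0.039, Chrna1 0.79 and Chrne 0.36, none called.

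All 3 tendon genes that could be tested, of 9 on the list, fell in the 2A-rich sections, where 1.08% of all genes tested fell. The summed level of the list was 43.3 to 136 in the 2A-rich sections, against 65.8 to 213 in the 2A-poor sections, lower in 4 of 4 muscles. Fmod (chr1:134037254-134048277), a proteoglycan that binds collagen fibrils, had 4.96, 8.71, 2.68 and 0.948 CPM in the 2A-rich sections, against 27.5, 31.4, 6.07 and 7.67 CPM in the 2A-poor sections (log2 difference -2.08 ± 0.21, adjusted p = 1.6e-06). Chad, a matrix protein of cartilage and tendon, had 6.07, 8.17, 0.805 and 1.26 CPM in the 2A-rich sections, against 32.96, 26.8, 1.30 and 8.20 CPM in the 2A-poor sections (log2 difference -2.11 ± 0.21, adjusted p = 1.6e-06). Both were lower in every muscle, and in Ctr both rest on few counts. The 4 muscles had 27, 32, 10 and 3 counts of Fmod in the 2A-rich sums, against 65, 69, 28 and 29 in the 2A-poor sums, and 33, 30, 3 and 4 counts of Chad, against 78, 59, 6 and 31. Thbs4, a matrix protein of tendon and its junction with muscle, had -0.42 ± 0.09 (adjusted p = 0.013), and its call was lost without WT replicate 1 (-0.31) or Ctr replicate 1 (-0.37). Col1a1 (chr11:94936224-94953042), the main fibrillar collagen gene, had 64.5, 82.8, 12.1 and 45.2 CPM in the 2A-rich sections, against 179.6, 171, 16.3 and 73.0 CPM in the 2A-poor sections (log2 difference -1.05 ± 0.11, adjusted p = 4.5e-06). It was the only gene called of the 9 tested on the list of 10 for fibro-adipogenic progenitors, where 2.19% of all genes tested were called. Others on that list were Col3a1 at -0.022 ± 0.11 (adjusted p = 0.96) and Dcn at -0.11 ± 0.07 (adjusted p = 0.55), and its summed level was 799.5 to 983 in the 2A-rich sections, against 854 to 1102 in the 2A-poor sections. Mmp2, a matrix protease, averaged 18.7 ± 7.39 CPM in the 2A-rich sections and 28.1 ± 9.29 CPM in the 2A-poor sections (SD, n = 4 each, log2 difference -0.59 ± 0.12, adjusted p = 0.008), and its call was lost without WT replicate 2 (-0.58) or Ctr replicate 1 (-0.54). Without tendon-marker-rich sections Col1a1 was called (-0.42), and Thbs4 (-0.11) and Mmp2 (-0.32) were not. Fmod (-0.64) and Chad (-0.56) were not called either. Both were among the markers that chose the sections left out, so their smaller differences there are no test of them.

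Of 9 macrophage genes 7 were tested and none was called, with a summed level of 56.6 to 105 in the 2A-rich sections, against 51.1 to 107 in the 2A-poor sections. Of 6 satellite cell genes only Myod1 could be tested (-0.12 ± 0.12, adjusted p = 0.73). Calcr was at 0 in all 8 sums, and Pax7 had too few counts. Of 7 adipocyte genes 2 were tested, Car3 as above and Cfd (0.41 ± 0.38, adjusted p = 0.71). Adipoq and Plin1, which define fat cells, had too few counts to be tested. Of 10 immediate early and heat shock genes 3 were tested and none was called.

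The 2A-rich difference was compared between the WT and Ctr muscles, which share no samples. Fitted alone, the WT muscles gave 37 called genes of 7415 (0.499%) and the Ctr muscles 268 of 8023 (3.34%). Of the 262 genes called in Ctr that could be tested in WT, 214 had the same sign there (81.7%, against 56.5% of all genes tested in both) and 25 were called in both. Of the 35 genes called in WT that could be tested in Ctr, 32 had the same sign. The test of WT minus Ctr itself called 2 genes of 7321 (0.0273%). One of the pair was Ldhb, in which the 2A-rich difference was 0.18 and 0.26 in the 2 WT muscles and 1.10 and 1.84 in the 2 Ctr muscles on the log2 scale, a difference of -1.22 ± 0.23 (adjusted p = 0.024). Its call was lost without WT replicate 1 (-1.16), without Ctr replicate 2 (-0.88) and without the replicate block (-1.24).

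The DMD muscles gave a set of 48 2A-rich sections for which the same ranking was made. Myh2 differed between their 2A-rich and 2A-poor sections by 1.73, 1.56 and 1.33 on the log2 scale in DMD replicates 1, 2 and 3, against 1.19, 1.25, 1.56 and 2.04 in the non-dystrophic muscles. edgeR called no gene within the DMD muscles (0 of 10432, 0.0%, with 470 at an unadjusted p below 0.05). edgeR's test of DMD minus non-dystrophic called none of 9745 either (0.0%). Of these 590 had an unadjusted p below 0.05, and without the filter on low counts 18 genes were called. Of the 160 genes called in non-dystrophic muscle, 157 could be tested in DMD muscle and 111 had the same sign there (70.7%, against 51.5% of all 7289 genes tested in both).

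Some of the genes named above had the same sign in all DMD muscles and others did not. Myl3 differed by 1.62, 0.90 and 1.36 on the log2 scale in DMD replicates 1, 2 and 3, against 0.86, 0.37, 1.51 and 0.93 in the non-dystrophic muscles, and Ankrd2 by 1.46, 0.997 and 0.52, against 0.69, 1.32, 1.03 and 1.58. Myh1 differed by 1.15, 0.26 and 0.42 in the 3 DMD muscles, against 0.53, 0.10, 0.95 and 0.84. Mss51 differed by 0.22, 0.041 and -0.996, against -1.62, -1.67, -2.53 and -2.16, so that no DMD value reached the non-dystrophic range. The test of DMD minus non-dystrophic gave 1.74 ± 0.29 (adjusted p = 0.18). Car3 differed by 0.74, 0.071 and -0.25, against -0.81, -0.62, -0.93 and -0.98, again without overlap, and the test gave 1.03 ± 0.22 (adjusted p = 0.47). Without DMD replicate 3 both were called in this test (Mss51 2.13 and Car3 1.27), and without DMD replicate 1 Car3 was (0.75). Both were also called with no filter on low counts (Mss51 1.75 and Car3 1.05), and Mss51 with sections ranked by the Myh2 share of adult myosin counts (1.82). For Hba-a1 the DMD muscles spread from a positive to a negative difference, at 2.81, 0.29 and -0.89. The fast fibre list had a median log2 difference of 0.10 in DMD muscle, against -0.23 in non-dystrophic muscle. The fatty acid list had 0.34 against 0.34, and the nuclear respiratory chain 0.30 against 0.12.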

How the data were processed

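The submitters' processing notes name STAR 2.7.7a and GRCm38. Counting was by featureCounts 2.0.1 with multi-mapped reads divided, per the file headers. The deposited values are therefore expected counts per gene and section, which the authors did not normalize, and molecular identifiers are described in the labels' protocols. The WT tables and the Ctr and DMD tables used different annotations, and the 53083 genes with 1 name and 1 length in both were analysed.

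Counts were summed per muscle and set of sections, rounded to whole numbers, and tested with edgeR 4.0.16 in R 4.3.3 (filterByExpr, TMM factors 0.752 to 1.29, muscle as block, Benjamini-Hochberg). Both sums of a muscle come from the same tissue, which is where the pairing comes from. Standard errors come from F (absolute log2 difference over its square root). The script was tested on simulated data. DESeq2 1.42.0 was an alternative. Gene coordinates are from GENCODE on GRCm38 and promoters from RefSeq.

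Named genes are the 12 largest called differences each way with a mean of at least 20 CPM and 1 sign in 4 muscles, and up to 5 members of each of 26 lists. Sections, lists and rules were chosen with earlier results of these data known. Alternatives were another test, scaling, filter, block, ranking, share of sections, window, depth and group, and leaving out each muscle. The other gene called in the test of WT minus Ctr is not reported here.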

Additional observations from a re-analysis of the deposited data

Results flagged for a closer look

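In Ldhb the 2A-rich against 2A-poor difference was itself different between the WT and Ctr muscles by a test of that difference (edgeR, 2 of 7321 genes called). Its log2 difference of WT minus Ctr was -1.22 (adjusted p = 0.024), and -1.63 to -0.88 on leaving out each muscle. The WT and Ctr tables were counted with different annotations, so group and annotation cannot be told apart.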

How the results depend on the processing

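The 56 called genes named by the rules above do not include Cd36. The alternatives reuse counts of the muscles in which these genes were called, so a kept direction is no independent support. No direction of these 56 changed under any alternative in which they could be tested, except ranking within windows of 8 neighbouring sections. There 9 of 56 reversed, none of them called. These were Hbb-bt (log2 -0.026), Actc1 (-0.11), Ttll7 (0.044), Mylk2 (0.037), Fabp3 (-0.055), Cacng1 (0.0024), Tagln (-0.011), Mbp (-0.20) and Thbs4 (0.073). The 160 called genes became 3 under windows, 57 with DESeq2, 369 when sections were ranked by Myh2 as a share of adult myosin counts (of which 148 were among the 160), 67 of 3602 tested with sections thinned to 1 depth, 37 in WT alone, 268 in Ctr alone and 32 without tendon-marker-rich sections. Leaving out each muscle gave 67 to 176 called genes, with 69 without Ctr replicate 1 and 67 without Ctr replicate 2. With no replicate block 3 genes were called (Mss51 -1.98, Fmod -2.05 and Car3 -0.83).

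The test of WT minus Ctr called 24 genes without the filter on low counts, 0 with no replicate block (143 at an unadjusted p below 0.05), and 5 to 24 on leaving out each muscle (5 without Ctr replicate 1, 7 without Ctr replicate 2, 24 without WT replicate 1 and 21 without WT replicate 2). The test of DMD minus non-dystrophic called 18 genes without the filter, 1 with the myosin share ranking (Mss51, 1.82), and 0 to 5 on leaving out each muscle, with Col1a1 (1.36) and Car3 (0.75) without DMD replicate 1, and Mss51 (2.13), Fmod (2.32), Chad (2.83), Car3 (1.27) and, named after its value was seen, Ibsp (7.35) without DMD replicate 3. The mitochondrial share difference was 3.12 percentage points under the myosin share ranking, and -0.351 to 1.17 on leaving out each muscle. The cause of these changes was not tested. Thinning left fewer genes to test, and leaving out a muscle or a group left fewer samples.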
